A study of Mus musculus with 6 samples.

Results

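The comparison of control siRNA with untransfected cells asks what the transfection itself did to gene expression, before any effect of the siRNA's target. It used 4 of the 6 RNA sequencing libraries of the series, chosen by their titles: pre2-2 and pre3, each untransfected and each given a control siRNA. The 2 siTet1 libraries entered the fit through the gene filter, the scaling, the effect of the line and the estimate of spread. They also entered a side-by-side comparison and the test of the difference between lines. The series description calls pre2-2 and pre3 pre-iPSC lines, that is, partially reprogrammed cells, whereas the sample labels read OG2 transgenic mouse embryonic fibroblasts at passage 10, of a mixed strain that is 1/2 129SVJ, 3/8 C57B6 and 1/8 CBA. All cells, untransfected ones included, grew in mES medium with LIF and received vitamin C at 50 ug/ml. The timing is given in conflicting ways: by the series text vitamin C was added at 16 h and RNA taken after a further 32 h, and by the sample labels transfected cells were harvested at 48 h and vitamin C lasted 36 h. The comparison cells are labelled untreated, not mock-transfected, so the siRNA and its delivery cannot be told apart. Each line and treatment had 1 library, and the labels do not name separate cultures, so p-values measure only the spread between these libraries, which may be technical.

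Small interfering RNAs are short RNA duplexes. Cells carry sensors of double-stranded RNA, among them the helicases Rig-I (gene Ddx58) and Mda5 (Ifih1), the kinase Pkr (Eif2ak2) and the oligoadenylate synthetases, which activate RNase L. Sensing leads to type I interferon, whose receptor signals through Jak kinases to a transcription factor complex that includes Stat2 and Irf9. That complex binds the interferon-stimulated response element, or ISRE, in the promoters of antiviral genes. Pluripotent stem cells are known for a weak interferon response, and fibroblasts for a strong one.

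The 4 libraries held 1886494 to 2582803 expected counts, the estimated number of reads per gene, and 11048 genes were tested. A level is given in CPM, read counts relative to the library total after TMM scaling, and 3 counts correspond to 1.16 to 1.59 CPM in these libraries. The untransfected pre2-2 library stood apart. It lay at -18.99 on the first principal component (62.6% of the variance) against -41.5 for the control siRNA library of its line, and at 28.1 on the second against 4.62 to 4.82 for the other 3 libraries of the comparison. Results are therefore also given without it. The labelled fibroblast identity met mixed markers: Pou5f1, the pluripotency factor Oct4, was at 1208 and 1042 CPM in untransfected and control siRNA pre2-2 and at 6619 and 5794 CPM in pre3. The fibroblast and mesenchymal genes summed to 2390 to 5613 CPM. Nanog and Esrrb, genes of fully reprogrammed cells, were between 0 and 3.54 CPM and were too low to test. In these bulk samples, a change in the share of a cell type and a change in RNA per cell cannot be told apart.

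Promoter sequences were examined for the interferon-responsive genes, because these genes moved together. The ISRE core was searched as GAAA, any 2 bases, then GAAA, on both strands with overlapping matches allowed. A gene counted as holding it if any of its promoters did. Of the 38 interferon-list genes that rose, 27 had a promoter in the reference, and 19 of these held the core (70.4%). It was present in 19 of 69 interferon-list genes with a promoter that were tested and not called (27.5%). Among genes with a promoter that rose and were in no interferon list, 6 of 90 held it (6.67%). Among all genes of the files with a promoter, 631 of 16030 held it (3.94%). In 15 of the 19 genes a match lay wholly before the start of transcription, and 8 of these 15 had 2 or more such matches. The promoters span 250 bases before to 50 after the start and are RefSeq's on build GRCm38.p6, a later build than the mm9 used for the counts. A match describes the letters and is not evidence of binding. By their names the interferon lists hold genes of that response, so the contrast with all genes says nothing about the rises. The list genes that were not called include receptors and Jak kinases, so the contrast with them does not isolate the rises. A link between the core and the rises was not tested.

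Shown here are 100-base stretches of 5 promoters, those of the genes with the highest fold changes among the 15, leaving out Apol9a, whose stretch nearly repeats that of Apol9b. Each is written 5′ to 3′ on the gene's strand, and capitals mark the matches to the ISRE core on either strand. Ifit1, which encodes a protein that binds foreign viral RNA, shows bases 135 to 36 before its start (chr19:34640754-34640853, plus strand) with 2 separate matches. Apol9b, an interferon-induced apolipoprotein L gene, shows bases 100 to 1 (chr15:77728972-77729071, plus strand) with 2 overlapping matches. Isg15, a ubiquitin-like modifier, shows bases 116 to 17 (chr4:156200835-156200934, minus strand) with 3 overlapping matches. Trim30a, a TRIM family gene, shows bases 100 to 1 (chr7:104465194-104465293, minus strand) with 1 match. Oas1g, an oligoadenylate synthetase, shows bases 100 to 1 (chr5:120887614-120887713, minus strand) with 2 overlapping matches.
Ifit1: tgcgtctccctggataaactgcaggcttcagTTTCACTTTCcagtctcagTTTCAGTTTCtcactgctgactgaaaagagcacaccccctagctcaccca
Apol9b: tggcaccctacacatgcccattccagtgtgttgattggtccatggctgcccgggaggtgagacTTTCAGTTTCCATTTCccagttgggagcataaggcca
Isg15: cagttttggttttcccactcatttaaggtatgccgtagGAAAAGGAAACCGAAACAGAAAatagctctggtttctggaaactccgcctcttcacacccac
Trim30a: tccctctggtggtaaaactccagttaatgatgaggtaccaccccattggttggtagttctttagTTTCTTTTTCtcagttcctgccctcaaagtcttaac
Oas1g: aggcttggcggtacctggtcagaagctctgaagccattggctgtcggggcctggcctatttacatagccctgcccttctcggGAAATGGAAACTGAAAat

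Transfection with control siRNA was followed mainly by higher expression. Of the 11048 genes tested, 164 were called (1.48%), 153 higher (1.38%) and 11 lower (0.0996%), with edgeR's quasi-likelihood test at an adjusted p under 0.05. At an unadjusted p under 0.05 there were 1016 genes (9.2%). Of the 153 genes, 38 belonged to the 9 interferon lists and 30 to the 4 lists of collagen, matrix, fibroblast and contractile genes. In no gene list were 80 of the 153, beside 10378 of the 11048 genes tested, and most of these 80 are not described here. The differences were larger in pre2-2 than in pre3 for 140 of the 153. A rise of at least 2-fold was found in pre2-2 for 139, in pre3 for 47 and in both lines for 44. Over all genes tested the same rise was found for 4.53% in pre2-2, 1.46% in pre3 and 0.652% in both. Of the 44 genes, 26 were in an interferon list and 2 in a matrix, fibroblast or contractile list. Without the untransfected pre2-2 library 52 genes were higher (0.471%) and 61 lower (0.552%). Without the pre2-2 control siRNA library 24 were higher and 5 lower, and without the untransfected pre3 library 527 and 186. With no term for the line edgeR called none, and 84 genes had an unadjusted p under 0.05. A fall of at least 2-fold in both lines was found for 10 genes (0.0905%).

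**Figure D1:**
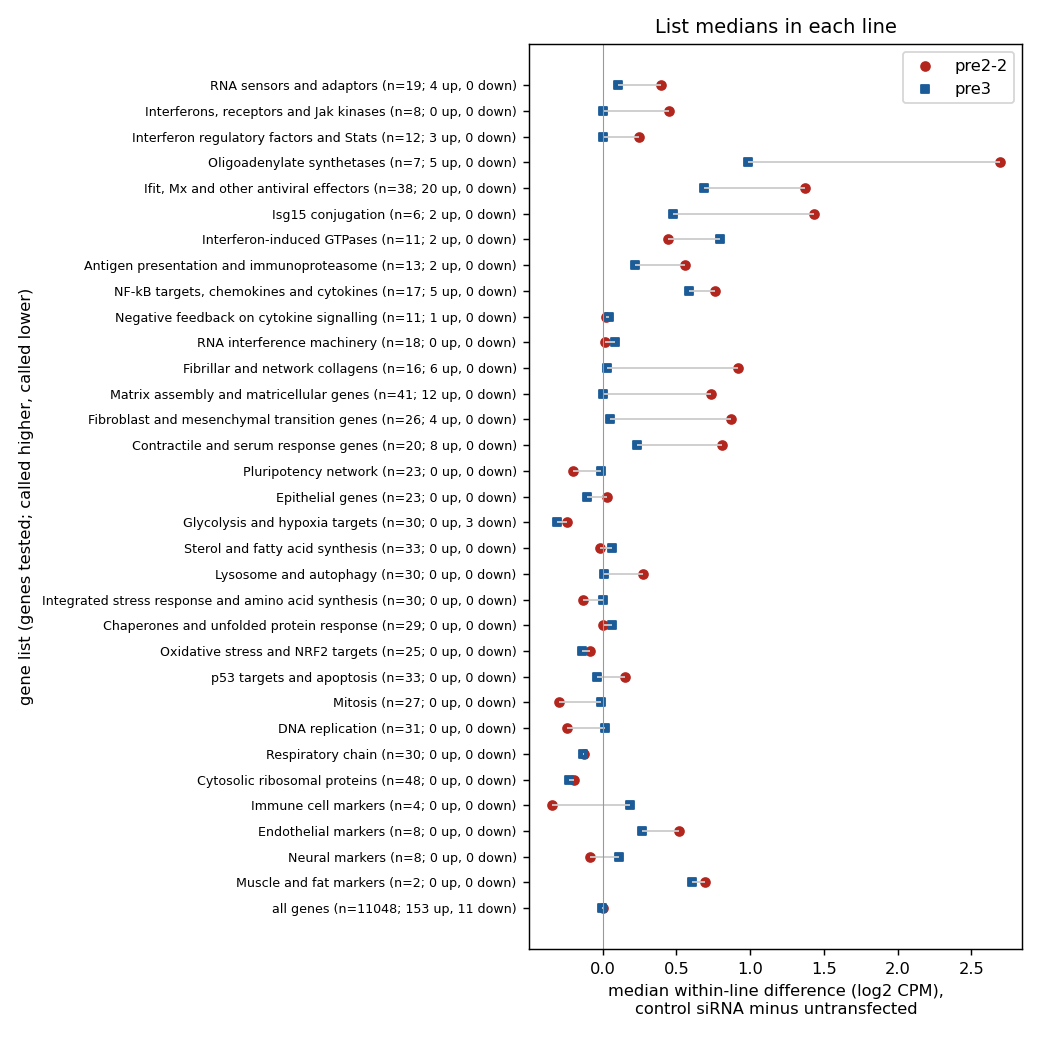
Median within-line difference, control siRNA minus untransfected in log2 CPM, of each gene list in pre2-2 (circles) and pre3 (squares), with 1 library against 1 in each line. Labels give the genes tested and the numbers called higher and lower. The oligoadenylate synthetases have the highest median in both lines, and the collagen and matrix lists lie near 0 in pre3.

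The 9 interferon lists held 123 tested genes, of which 38 rose and none fell, with a median log2 fold change of 0.52 against 0.0028 over all genes. The median within-line difference was 0.69 in pre2-2 and 0.31 in pre3. Of the 38 calls, 18 remained without the untransfected pre2-2 library, 13 without the pre2-2 control siRNA library, and all 38 without either pre3 library. DESeq2 kept 17 and limma voom 37. The summed level of 24 immune cell markers went from 225 to 189 CPM in pre2-2 and from 294 to 337 CPM in pre3. Only 4 of them were expressed enough to test, and 8 were at 0 in all 4 libraries, among them Cd52, Cd3e, Cd4, Ms4a1, Ncr1, Klrk1 and Itgax.

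**Figure D2:**
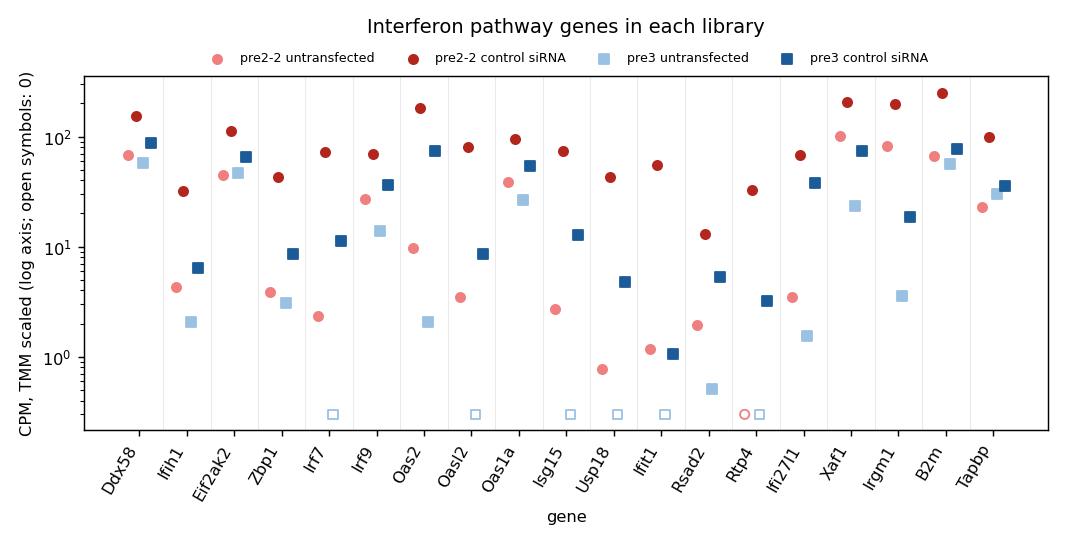
CPM (log axis) of 19 interferon pathway genes in the 4 libraries. Circles are pre2-2 and squares pre3, pale for untransfected and dark for control siRNA; open symbols at the bottom stand for 0. Within each line the control siRNA library lies above the untransfected one for all 19 genes, which were picked from those called higher. Of the 123 tested genes of the interferon lists, the difference was positive for 105 in pre2-2 and 88 in pre3.

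Among the RNA sensors and adaptors, 4 of 19 tested genes rose and none fell. Ddx58, the sensor Rig-I, was at 68.0 CPM in untransfected and 153 CPM in control siRNA pre2-2, and at 58.0 and 88.0 CPM in pre3. Its log2 fold change was 0.92 (SE 0.16, adjusted p = 0.00101). Ifih1, the related sensor Mda5, went from 4.27 to 31.9 CPM in pre2-2 and from 2.05 to 6.40 CPM in pre3 (log2 fold change 2.54, SE 0.44, adjusted p = 0.00104). Both sensors were thus higher with control siRNA in each line, by larger ratios in pre2-2. Eif2ak2, the kinase Pkr that halts translation on binding double-stranded RNA, went from 44.3 to 113 CPM and from 46.2 to 65.0 CPM (0.97, SE 0.19, adjusted p = 0.00369). Zbp1, a sensor of Z-form nucleic acids, went from 3.89 to 43.0 CPM and from 3.08 to 8.53 CPM (2.84, SE 0.42, adjusted p = 0.000165). Of these 4 calls, Ddx58 remained without the untransfected pre2-2 library, none remained without the pre2-2 control siRNA library, and Zbp1 remained with DESeq2. The endosomal sensor Tlr3 was at 0.533 to 3.04 CPM and Dhx58, the Rig-I relative Lgp2, at 0 to 6.58 CPM, and neither was tested.

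The interferons themselves were not detected. The 18 interferon genes in the files, Ifnb1 and the Ifna family among them, summed to 0 counts in 3 of the 4 libraries and to 1 count in control siRNA pre3. A count of 0 allows up to 1.16 to 1.59 CPM. Of 8 tested genes for interferons, receptors and Jak kinases none was called, and 1 had an unadjusted p under 0.05. Their median log2 fold change was 0.24.

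Among the transcription factors of the pathway, 3 of 12 rose and none fell. Irf7, by which the response amplifies itself, was at 2.33 CPM in untransfected and 72.4 CPM in control siRNA pre2-2, and at 0 and 11.2 CPM in pre3. Its log2 fold change was 5.05 (SE 0.42, adjusted p = 7.44e-09). Irf7 was at 0 counts in untransfected pre3, so its size there rests on few reads. Irf9 went from 27.2 to 69.3 CPM in pre2-2 and from 13.8 to 36.2 CPM in pre3 (1.35, SE 0.21, adjusted p = 0.000345), a rise of 2.55-fold and 2.62-fold. Both calls were kept without the untransfected pre2-2 library, whereas only that of Irf7 was kept without the pre2-2 control siRNA library or with DESeq2. Stat2, the partner of Irf9, was at 21.4 and 58.7 CPM in pre2-2 and at 18.98 and 18.66 CPM in pre3, and was not called (0.90, SE 0.27, adjusted p = 0.117).

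The oligoadenylate synthetases, which make the messenger that activates RNase L, had the highest median of any list. Of 7 tested, 5 rose and none fell, the median log2 fold change was 2.09, and all 7 were positive in each line. Oas1d, a list member too low to test, went the other way on few counts. It was at 3.11 and 1.01 CPM in untransfected and control siRNA pre2-2, and at 6.67 and 2.13 CPM in pre3. Oas2 was at 9.71 CPM in untransfected and 182 CPM in control siRNA pre2-2, and at 2.05 and 73.6 CPM in pre3. The control siRNA libraries thus lay far above both untransfected ones, by 35.9-fold in pre3 and 18.8-fold in pre2-2. The pre3 ratio rests on 4 counts in the untransfected library, so which line had the larger ratio is uncertain. The fit gave 21.5-fold (log2 fold change 4.42, SE 0.23, adjusted p = 1.67e-12), the smallest adjusted p of all genes. Oasl2, a relative that binds Rig-I, went from 3.50 to 80.0 CPM and from 0 to 8.53 CPM (4.57, SE 0.39, adjusted p = 1.31e-08). Oas3 went from 6.60 to 48.1 CPM and from 6.67 to 10.1 CPM (2.09, SE 0.37, adjusted p = 0.00139), so most of its rise was in pre2-2. Oas1a and Oas1g are close copies, with 57.6% of the 50-base words of Oas1a and 45.7% of those of Oas1g found in other genes, so their separate counts are uncertain. Summed, they went from 40.8 to 123 CPM and from 27.7 to 59.7 CPM (1.40, SE 0.18, adjusted p = 1.83e-05). The calls of Oas1a, Oas2 and Oasl2 were kept without either pre2-2 library, and those of Oas1g and Oas3 were not.

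Isg15 and its machinery attach a ubiquitin-like tag to proteins during infection. Isg15 was at 2.72 CPM in untransfected and 74.4 CPM in control siRNA pre2-2, and at 0 and 12.8 CPM in pre3 (log2 fold change 4.89, SE 0.40, adjusted p = 7.44e-09). Usp18, which removes the tag and also damps the interferon receptor, held 2 counts in the untransfected libraries together and 93 in the control siRNA libraries. That is a ratio of 55.1 (exact 95% interval 14.8 to 462, counting error only; adjusted p = 9.69e-07). Both genes were thus almost silent in untransfected cells. They were the 2 of 6 tested genes of the list that rose, and both calls were kept without each of the 4 libraries and with DESeq2. Ube2l6, the conjugating enzyme, went from 13.6 to 32.4 CPM and from 10.8 to 15.5 CPM without being called (0.97, SE 0.28, adjusted p = 0.0972). Herc6, the ligase, was at 8.55 and 29.4 CPM in pre2-2 and at 8.21 and 6.40 CPM in pre3, also not called (adjusted p = 0.336).

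The antiviral effectors formed the largest group, with 20 of 38 tested genes higher, none lower and a median log2 fold change of 1.15. Within lines the median was 1.37 in pre2-2 and 0.69 in pre3, and 15 of the 38 were at least 2-fold higher in both. Ifi27l1, an interferon-induced membrane protein gene, was at 3.50 and 68.3 CPM in pre2-2 and at 1.54 and 37.8 CPM in pre3 (4.35, SE 0.31, adjusted p = 4.83e-10). Lgals3bp, a secreted glycoprotein, went from 8.16 to 172 CPM and from 5.64 to 37.8 CPM (3.89, SE 0.28, adjusted p = 4.83e-10). For both genes each control siRNA library lay above both untransfected libraries. Lgals9, a galectin, went from 21.4 to 135 CPM and from 17.4 to 44.2 CPM (2.17, SE 0.23, adjusted p = 9.69e-07). Parp9, an antiviral ADP-ribosyltransferase, went from 32.2 to 90.6 CPM and from 14.4 to 44.8 CPM (1.53, SE 0.20, adjusted p = 3.13e-05). Xaf1, a promoter of cell death, went from 101 to 207 CPM and from 23.6 to 74.1 CPM (1.20, SE 0.19, adjusted p = 0.000424), with the higher ratio in pre3. Lgals9 and Parp9 separated the groups fully, whereas Xaf1 was higher in untransfected pre2-2 than in control siRNA pre3. Ifitm3, which blocks virus entry, went from 201 to 501 CPM and from 336 to 450 CPM (0.85, SE 0.15, adjusted p = 0.00101).

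Other effectors had almost no reads in untransfected cells. Ifit1 held 3 counts in the untransfected libraries and 110 in the control siRNA libraries, a ratio of 43.4 (interval 14.5 to 214), but in pre3 it reached only 1.07 CPM. Rtp4, a suppressor of viral replication, held 0 and 70 counts, which is at least 27.6-fold higher against 3 counts over the group. Ifi44 held 2 and 57 counts, a ratio of 33.8 (interval 8.93 to 286), and its pre3 levels of 1.03 and 1.60 CPM did not differ beyond a few reads. For Ifit1 and Ifi44 the call therefore rested on pre2-2. Apol9a and Apol9b, summed because 52.3% of the words of Apol9b are found in other genes, went from 1.55 to 62.2 CPM in pre2-2 and from 0 to 10.7 CPM in pre3 (5.44, SE 0.48, adjusted p = 1.81e-08). Mx1 stayed at 0.389 to 1.52 CPM and Ifit2 at 0.533 to 5.06 CPM, and neither was tested. Of the 20 calls, 8 remained without the untransfected pre2-2 library and 7 without the pre2-2 control siRNA library.

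The interferon-induced GTPases act on vacuoles that hold pathogens. Of 11 tested, 2 rose and none fell, with a median log2 fold change of 0.58. Irgm1, a regulator of the family, was at 81.6 and 198 CPM in pre2-2 and at 3.59 and 18.7 CPM in pre3 (1.40, SE 0.20, adjusted p = 0.000114). The 2 lines thus differed more in its level than the treatments did within either line, and the ratio was 5.20 in pre3 against 2.43 in pre2-2. Gvin1, a very large GTPase, went from 9.71 to 52.6 CPM and from 1.54 to 3.73 CPM (2.27, SE 0.35, adjusted p = 0.000256). Igtp was at 22.5 and 25.3 CPM in pre2-2 and at 0 and 3.73 CPM in pre3, and was not called (adjusted p = 0.866). The call of Irgm1 was kept without the untransfected pre2-2 library and with DESeq2 and that of Gvin1 was not, and neither was kept without the pre2-2 control siRNA library.

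In antigen presentation, 2 of 13 tested genes rose and none fell, with a median of 0.50. B2m, the light chain of MHC class I, was at 66.0 and 251 CPM in pre2-2 and at 56.4 and 76.8 CPM in pre3 (1.31, SE 0.21, adjusted p = 0.000328). Tapbp, tapasin, which loads peptide onto MHC class I, went from 22.9 to 98.7 CPM and from 29.7 to 35.7 CPM (1.31, SE 0.27, adjusted p = 0.0053). Most of both rises lay in pre2-2, and neither call was kept without either pre2-2 library or with DESeq2. Tap1, a peptide transporter, was at 32.2 and 33.4 CPM in pre2-2 and at 16.9 and 30.4 CPM in pre3, and was not called (adjusted p = 0.739).

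Among NF-kB targets, chemokines and cytokines, 5 of 17 rose and none fell, with a median of 0.56. Ccl2, a chemokine for monocytes, was at 22.9 and 46.6 CPM in pre2-2 and at 3.08 and 11.7 CPM in pre3 (1.17, SE 0.28, adjusted p = 0.029). Csf1, the macrophage growth factor, went from 78.9 to 206 CPM and from 17.4 to 25.6 CPM (1.18, SE 0.18, adjusted p = 0.000259). Vcam1, an adhesion molecule, went from 8.16 to 32.9 CPM and from 3.08 to 6.40 CPM (1.78, SE 0.37, adjusted p = 0.00723). These 3 were higher in both lines, by 2.03-fold and 3.81-fold for Ccl2. Cxcl12, a chemokine of stromal cells, and Ptgs2, the inducible cyclooxygenase, also rose (adjusted p = 0.0186 and 0.00369). The interferon-induced chemokines stayed low: Cxcl10 was at 0.389 and 5.06 CPM in pre2-2 and at 0 in pre3, and Ccl5 was at most 1.07 CPM. Without the untransfected pre2-2 library the call of Ccl2 was the only one of the 5 kept, and without the pre2-2 control siRNA library none was.

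Negative feedback genes did not move as a list: Usp18 was the 1 of 11 that was called, and the median was 0.13. Socs3, an inhibitor of cytokine receptors, was at 135 and 118 CPM in pre2-2 and at 70.8 and 61.3 CPM in pre3 (adjusted p = 0.771). Of the 18 tested genes of the RNA interference machinery, none was called, 1 had an unadjusted p under 0.05, and the median was 0.03. Eif2c2, the slicer Argonaute 2, was at 185 and 186 CPM in pre2-2 and at 134 and 189 CPM in pre3 (0.24, SE 0.13, adjusted p = 0.649).

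The second large set of genes that rose encoded the extracellular matrix and the contractile cytoskeleton, and its rise lay mostly in pre2-2. The 4 lists held 103 tested genes, of which 30 rose and none fell, with a median log2 fold change of 0.54. The median within-line difference was 0.76 in pre2-2 and 0.05 in pre3. Without the untransfected pre2-2 library the median log2 fold change of these lists was 0.09. A rise of at least 2-fold was found for 37 of the 103 in pre2-2, for 5 in pre3 and for 4 in both. Of the 30 calls, 7 remained without the untransfected pre2-2 library: Bgn, Col1a1, Col1a2, Col5a1, Sparc, Thbs1 and Timp2. Without the pre2-2 control siRNA library 3 remained, Col8a1, Thbs1 and Timp2, and without either pre3 library all 30 did. DESeq2 kept 7 and limma voom 30. A test of the difference between lines called 1 gene of all 11048 (0.00905%), Amd2, and none of these 103, which does not show that the lines responded alike.

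**Figure D3:**
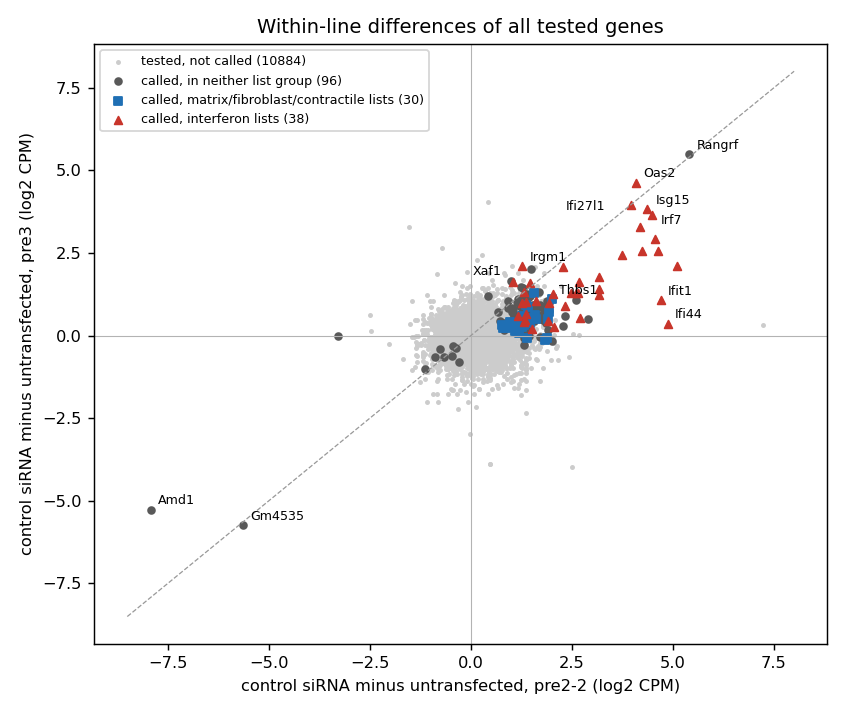
Within-line differences, control siRNA minus untransfected in log2 CPM, of all 11048 tested genes, with pre2-2 across and pre3 upward and 1 library against 1 in each. The dashed line marks equal differences. Interferon genes (triangles) spread far to the upper right, while matrix, fibroblast and contractile genes (squares) lie to the right and mostly below the dashed line.

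Among the collagens, 6 of 16 rose and none fell. Col1a1, the main chain of fibrillar collagen I, was at 752 and 2054 CPM in untransfected and control siRNA pre2-2, and at 367 and 480 CPM in pre3 (log2 fold change 0.94, SE 0.14, adjusted p = 0.000259). The ratio was 2.73 in pre2-2 and 1.31 in pre3. Col1a2, its partner chain, went from 458 to 1095 CPM and from 207 to 249 CPM (0.81, SE 0.14, adjusted p = 0.00139). Both chains of collagen I thus kept the same order of libraries, with untransfected pre2-2 above control siRNA pre3. Col8a1, a short-chain network collagen, went from 30.7 to 93.1 CPM and from 7.69 to 20.3 CPM (1.57, SE 0.23, adjusted p = 0.000154), a rise of 3.03-fold and 2.63-fold. Col3a1, a fibrillar collagen of soft tissue, was at 148 and 225 CPM in pre2-2 and at 140 and 132 CPM in pre3, and was not called (adjusted p = 0.56). The summed level of the 18 collagens in the files went from 3024 to 6433 CPM in pre2-2 and from 2310 to 2467 CPM in pre3.

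Of 41 tested genes of matrix assembly and matricellular proteins, 12 rose and none fell. Their median log2 fold change was 0.41, and 0.02 without the untransfected pre2-2 library. Thbs1, thrombospondin 1, an activator of latent TGF-beta, was at 373 and 1499 CPM in pre2-2 and at 80.5 and 173 CPM in pre3 (1.65, SE 0.15, adjusted p = 3.47e-08). Timp2, an inhibitor of matrix metalloproteinases, went from 126 to 340 CPM and from 58.0 to 107 CPM (1.22, SE 0.15, adjusted p = 1.69e-05). These 2 were the matrix genes called in every alternative that kept the cell line in the model. Lox, which crosslinks collagen, went from 59.8 to 227 CPM and from 23.6 to 33.6 CPM (1.51, SE 0.22, adjusted p = 9.93e-05). Sparc, a collagen-binding glycoprotein, went from 410 to 983 CPM and from 175 to 239 CPM (0.89, SE 0.14, adjusted p = 0.000345). Bgn, the proteoglycan biglycan, went from 367 to 881 CPM and from 149 to 202 CPM (0.90, SE 0.14, adjusted p = 0.000328). All 3 rose by larger ratios in pre2-2. Fn1, fibronectin, was at 2414 and 3973 CPM in pre2-2 and at 3220 and 2871 CPM in pre3, and was not called (0.24, SE 0.15, adjusted p = 0.705).

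The fibroblast and mesenchymal genes had a median difference of 0.87 in pre2-2 and 0.05 in pre3. Of 26 tested, 4 rose, Thy1, Itga5 and Inhba among them. Thy1, a surface marker of fibroblasts, was at 48.2 and 106 CPM in pre2-2 and at 23.1 and 28.8 CPM in pre3 (0.86, SE 0.20, adjusted p = 0.018). Inhba, a subunit of activin A, went from 28.4 to 88.1 CPM and from 3.08 to 4.80 CPM (1.53, SE 0.25, adjusted p = 0.000424). Both were higher in each line, by larger ratios in pre2-2. Vim, vimentin, was at 1413 and 2024 CPM in pre2-2 and at 1001 and 1097 CPM in pre3, and was not called (0.32, SE 0.10, adjusted p = 0.118). None of the 4 calls was kept without the untransfected pre2-2 library, without the pre2-2 control siRNA library or with DESeq2.

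The contractile and serum response genes gave 8 calls of 20, all higher, and none was kept without either pre2-2 library or with DESeq2. Acta2, smooth muscle actin, was at 242 and 635 CPM in pre2-2 and at 63.6 and 60.2 CPM in pre3 (0.88, SE 0.19, adjusted p = 0.0124). Tagln, transgelin, went from 164 to 458 CPM and from 34.4 to 44.8 CPM (1.16, SE 0.18, adjusted p = 0.000253). Ankrd1, a nuclear target of stretch signalling, went from 12.0 to 48.6 CPM and from 2.56 to 4.80 CPM (1.83, SE 0.32, adjusted p = 0.00127). The pre3 differences of these genes were small beside those in pre2-2. Without the untransfected pre2-2 library, 2 members of the list were called lower. The CArG box, the motif of serum response factor, was present in 5 of 17 tested genes of the list with a promoter (29.4%). Over all genes of the files with a promoter it was present in 273 of 16030 (1.70%). By its name the list holds serum response genes, so this contrast says nothing about the rises. Among the matrix, fibroblast and contractile genes that rose, 21 had a promoter and 2 of these held the box (9.52%). The 2 were Cnn2 and Myl9, both in this list. A link between the box and the rises was not tested.

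**Figure D4:**
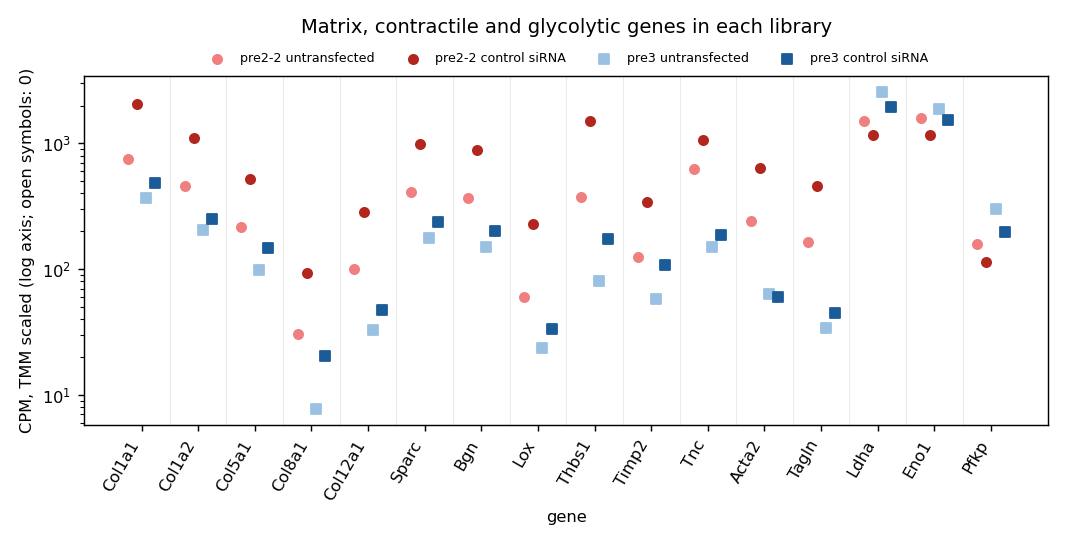
CPM (log axis) of 13 matrix, fibroblast and contractile genes called higher and of the 3 glycolytic genes that fell, in the 4 libraries. Circles are pre2-2 and squares pre3, pale for untransfected and dark for control siRNA. The pairs of Col1a1 through Tagln lie farther apart in pre2-2 than in pre3, while Ldha, Eno1 and Pfkp are lower with control siRNA in both lines.

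Few genes fell, and 3 of the 11 were glycolytic. Ldha, which turns pyruvate into lactate, was at 1494 and 1159 CPM in pre2-2 and at 2548 and 1958 CPM in pre3 (log2 fold change -0.37, SE 0.08, adjusted p = 0.0152). Eno1, enolase, went from 1586 to 1175 CPM and from 1892 to 1525 CPM (-0.37, SE 0.09, adjusted p = 0.0253). Pfkp, a phosphofructokinase at the committed step, went from 158 to 114 CPM and from 301 to 196 CPM (-0.54, SE 0.13, adjusted p = 0.0288). The falls were of similar ratio in both lines, 0.776 and 0.769 for Ldha. Of the 30 tested genes for glycolysis and hypoxia, 3 fell, none rose, 27 had a negative fold change and the median was -0.24 (-0.24 in pre2-2 and -0.31 in pre3). Without the untransfected pre2-2 library 11 fell, 2 of these 3 (Ldha and Pfkp) among them. None of the 3 calls was kept without the pre2-2 control siRNA library, without the pre3 control siRNA library or with DESeq2.

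Outside the gene lists, 8 genes were called lower, 3 of them with counts that are uncertain. Acsbg1, an acyl-CoA synthetase, was at 55.2 and 29.4 CPM in pre2-2 and at 107 and 68.8 CPM in pre3 (-0.75, SE 0.17, adjusted p = 0.0151). Crabp2, a retinoic acid carrier, went from 94.0 to 76.9 CPM and from 488 to 281 CPM (-0.59, SE 0.15, adjusted p = 0.0403). Fxyd6, a regulator of the sodium pump, went from 100 to 62.8 CPM and from 136 to 86.9 CPM (-0.67, SE 0.15, adjusted p = 0.0124). Each was lower in both lines. Nlrp1a, an inflammasome sensor (-0.59, SE 0.15, adjusted p = 0.0305), and Pdzd7, a scaffold of sensory hair cells (-1.15, SE 0.26, adjusted p = 0.0184), were also lower in both. None of these 5 calls was kept without either control siRNA library or with DESeq2. Without the untransfected pre2-2 library those of Nlrp1a and Pdzd7 were also lost, and without untransfected pre3 that of Crabp2, whose fold change ran from -0.85 to -0.18.

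The largest fitted change in each direction belonged to a gene that shares sequence with others. Rangrf was at 0 in both untransfected libraries and at 40.0 and 42.6 CPM with control siRNA, and Gm4535 was at 47.0 and 50.8 CPM in the untransfected libraries and at 0 with control siRNA. Of the 50-base words of Gm4535, 58.5% are also in Rangrf, and of those of Rangrf 79.0% are in other genes, mostly Slc25a35 (66.4%). Their sum was 47.0 and 40.0 CPM in pre2-2 and 50.8 and 42.6 CPM in pre3, and was not called (-0.25, SE 0.19, adjusted p = 0.798). The opposite all-or-none changes were thus not present in the sum. Amd1 went from 233 to 0 CPM in pre2-2 and from 36.4 to 0 CPM in pre3, and 76.7% of its words are found in other genes. With Amd2 it summed to 233 and 202 CPM and to 235 and 247 CPM (-0.07, SE 0.12, adjusted p = 0.938). Rnaset2b, at 8.55 CPM in untransfected pre2-2 and at 0 in the other 3 libraries, was not called when summed with Rnaset2a (0.19, SE 0.18, adjusted p = 0.85).

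Other pathways that a transfection can disturb gave no calls. None was made among 33 sterol and fatty acid synthesis genes, 30 lysosome and autophagy genes, 30 genes of the integrated stress response, 29 chaperones, 25 oxidative stress genes or 33 p53 and apoptosis genes. At an unadjusted p under 0.05 these lists gave 1, 11, 5, 1, 2 and 2 genes in edgeR, where the share over all genes was 9.2%. The lysosome genes had the highest median of these lists, 0.23, with 0.27 in pre2-2 and 0.01 in pre3. Asns, asparagine synthetase and a target of Atf4, was at 139 and 101 CPM in pre2-2 and at 215 and 157 CPM in pre3 (-0.46, SE 0.13, adjusted p = 0.0972). Cdkn1a, the p53 target p21, was at 483 and 520 CPM and at 539 and 514 CPM (0.02, SE 0.11, adjusted p = 0.987).

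No call was made among 27 mitosis, 31 DNA replication, 30 respiratory chain and 48 ribosomal protein genes. The ribosomal protein genes nevertheless leaned one way: 0 of 48 had a positive fold change, 30 had an unadjusted p under 0.05 (9.2% over all genes) and the median was -0.20 (-0.19 in pre2-2 and -0.23 in pre3). Their summed level went from 51388 to 44514 CPM in pre2-2 and from 61198 to 52448 CPM in pre3. Rpl3, a protein of the large subunit, was at 2162 and 1828 CPM and at 3094 and 2503 CPM (-0.27, SE 0.08, adjusted p = 0.0992). For mitosis the median was -0.29 in pre2-2 and -0.01 in pre3.

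No pluripotency or epithelial gene was called. Among 23 pluripotency genes the median was -0.12, and Pou5f1 differed by -0.20 (SE 0.07, adjusted p = 0.278). Among 23 epithelial genes it was -0.06, and Cdh1, E-cadherin, was at 134 and 129 CPM in pre2-2 and at 56.9 and 52.8 CPM in pre3 (adjusted p = 0.938). At an unadjusted p under 0.05 each of these lists gave 3 of 23 genes, beside 9.2% over all genes. No gene was called among the 8 endothelial, 8 neural and 2 muscle and fat markers that could be tested. At an unadjusted p under 0.05 in edgeR these gave 2, 4 and 1 genes, beside 9.2% over all genes. Their median log2 fold changes were 0.47, 0.07 and 0.59.

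The siTet1 libraries were compared with the same untransfected libraries, so their values stand only side by side. Oas2 was at 79.6 CPM with siTet1 in pre2-2 and at 27.7 CPM in pre3, with a log2 fold change of 3.15 (SE 0.26) against untransfected cells, next to 4.42 with control siRNA. Isg15 was at 20.6 and 5.32 CPM, with 3.17 (SE 0.49) next to 4.89. Irf9 was at 29.0 and 21.3 CPM, with 0.30 (SE 0.24) next to 1.35. For these genes the siTet1 level lay below the control siRNA level in each line. Over the 9 interferon lists the median log2 fold change was 0.25 with siTet1 next to 0.52, but lists differed. It was 0.43 next to 0.24 for interferons, receptors and Jak kinases, and -1.14 next to 0.58 for the interferon-induced GTPases. Irgm1 with siTet1 was at 48.2 CPM in pre2-2, below the untransfected 81.6 CPM, and at 6.91 CPM in pre3, above the untransfected 3.59 CPM. Over the 4 matrix, fibroblast and contractile lists the median was 0.64 with siTet1 next to 0.54, and over the collagens 0.71 next to 0.45. Col1a1 was at 1568 and 463 CPM, with 0.70 (SE 0.14) next to 0.94, and Thbs1 was at 891 and 112 CPM, with 0.96 (SE 0.15) next to 1.65. Tnc, the matricellular protein tenascin C, was at 1870 and 326 CPM, with 1.37 next to 0.57, so single genes differed in which value was higher. Ldha was at 960 and 1659 CPM, with -0.63 next to -0.37.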

How the data were processed

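Gene counts were analysed from 6 libraries, 1 per line (pre2-2, pre3) and treatment, grouped by their titles. Per the submitters' processing notes the authors used RSEM 1.1.21 and mm9, and per the labels libraries were made with a TruSeq RNA kit from Trizol extracts. The deposited files give per gene symbol an expected count, not normalized, of which 18.7 to 21.4% per library were not whole (tolerance 0.005). They also give a fraction of transcripts, as deposited by the authors, which was rescaled to TPM and supports no result here. Aligner settings, read length and strand use are not given in the sources used here. A table repeating the fractions for the whole series was not used here.

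Expected counts were rounded and tested two-sided in R 4.3.3 by edgeR's quasi-likelihood test (version 4.0.16) with TMM scaling. The model held line and treatment and used all 6 libraries; filterByExpr (minimum count 10, grouped by treatment) kept 11048 of 20325 genes, over which Benjamini-Hochberg adjustment was made. Calls were made at an adjusted p under 0.05. Standard errors are the absolute log2 fold change over the root of F. Alternatives used DESeq2 1.42.0 and limma 3.58.1; adjusted p-values with no tool named are edgeR's. An exact permutation test of 2 libraries against 2 cannot go below 0.333. Lines pair the libraries: log2 CPM correlated across genes at 0.983 to 0.989 within a line and 0.965 to 0.980 between lines. No 2 libraries shared more than 4.14% identical counts. Within-line differences are log2 CPM with a prior count of 2 and have no test. The line difference was tested as line by transfection, with control siRNA and siTet1 as the 2 transfected libraries of a line, assumed to vary like replicates. Lists (32, of which 852 of 865 entries were in the files) were described by counts and medians, with no set test. The procedure was tested on simulated counts.

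The comparison and the lists were chosen with earlier results of these data known. Named genes were the 15 called genes with the highest and up to 15 with the lowest fold change, the 10 of highest mean CPM, the called members of each list (up to 10 by smallest p) with its first 4 members, the 10 per direction with the largest smaller within-line difference and the 5 of smallest p for the line difference. Alternatives were RLE factors, no filter, DESeq2, limma voom, the 4 libraries alone, no line term and each library left out. Summing 5 pairs of genes that share reads was added after seeing the data. Shared reads were gauged as 50-base words of GENCODE vM21 transcripts found in other genes. Counting intervals are exact at 95% and, like the floor of 3 counts, cover counting error only. Some genes that the rule names are not reported here.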

Additional observations from a re-analysis of the deposited data

Results flagged for a closer look

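Amd2 was the 1 gene called for a difference between lines (0.00905% of those tested; 603 had p under 0.05 before adjustment). The gene was at 0.389 and 202 CPM in pre2-2 and at 199 and 247 CPM in pre3, and its difference between lines, pre3 minus pre2-2, was -8.33 on the log2 scale (SE 0.50, adjusted p = 0.000349). Amd2 shares 85.7% of its 50-base words with other genes, and summed with Amd1 the difference was 0.31 (adjusted p = 0.882).

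Acta2 was higher in pre2-2 and slightly lower in pre3, with a difference of -0.0772 in log2 CPM. This value compares 1 library with 1. In the test that also uses the siTet1 libraries, the difference between lines was -1.21 (SE 0.26, adjusted p = 0.742) and was not called.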

How the results depend on the processing

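The 164 calls became 164 with RLE factors, 186 with limma voom, 219 with only the 4 libraries compared and the line as replicate block, and 158 with the 5 pairs summed. They became 32 with DESeq2 (31 higher, 1 lower) and 259 with no filter on low counts (31 lower). With no replicate block, that is, without the line, none was called in either direction, and 84 had an unadjusted p under 0.05. With the 4 libraries alone 19 genes were lower, in place of 11. Leaving out each library in turn gave 29 to 713 genes called, 24 to 527 higher and 5 to 186 lower; the lowest came on leaving out control siRNA pre2-2 and the highest on leaving out untransfected pre3. The 1 call of a line difference became 5 with DESeq2, 0 with limma voom and 0 with pairs summed. Of 77 named genes that were called, 15 stayed called the same way in every setting that kept the line, leaving aside the summed pairs. Rangrf and Gm4535 are among these 15, although their sum was not called. Named values that turned sign were 0610010B08Rik (-1.17 to 3.05 over the libraries left out, negative without untransfected pre3), Rnaset2b (-7.18 to 0.10, positive without control siRNA pre2-2) and Rangrf (-0.25 when summed with Gm4535). Leaving out a library leaves 1 in its group, assumed to vary like the others. The comparison of siTet1 with untransfected cells (724 called) was not rerun. Depth limits the genes near 3 counts, among them the interferons, Mx1, Ifit2 and Cxcl10.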

Other observations

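Some genes outside the gene lists also rose; the following were chosen after their values were seen. Samd9l, an interferon-inducible restriction factor, went from 99.1 to 165 CPM in pre2-2 and from 45.6 to 61.8 CPM in pre3 (log2 fold change 0.62, SE 0.16, adjusted p = 0.0398). Peg10, an imprinted gene derived from a retrotransposon, went from 50.5 to 144 CPM and from 2.05 to 11.2 CPM (1.62, SE 0.21, adjusted p = 3.06e-05). Lars2, the mitochondrial leucyl-tRNA synthetase, went from 170 to 461 CPM and from 350 to 556 CPM (1.01, SE 0.16, adjusted p = 0.000328), and in the siTet1 libraries it was at 990 and 903 CPM. Plau, the urokinase, went from 23.3 to 60.2 CPM and from 6.16 to 6.93 CPM (1.12, SE 0.28, adjusted p = 0.0305). Samd9l and Peg10 were higher in both lines, while the change of Plau lay in pre2-2. With DESeq2 the call of Peg10 was kept, and those of Samd9l, Lars2 and Plau were not.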
